A study of Mus musculus with 9 samples.

Results

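The 10 genes described here are markers of Paneth cells, the granule-filled secretory cells at the base of small intestinal crypts: *Lyz1*, *Mmp7*, *Ang4*, *Itln1*, *Mptx2*, *Pnliprp2*, *Guca2b*, *Habp2*, *Clps* and *Nupr1*. They were taken by symbol and matched to Ensembl mouse gene identifiers, and all 10 of 10 were found among the 54838 identifiers of the expression tables. The alpha-defensins were not included. All 10 reached the level needed to be tested, as did 12702 genes in all.

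RNA-seq was performed on small intestinal organoids, epithelial cultures started from crypts. The mice (C57BL/6) were *Vil-CreERT2*;*Mettl3* fl/fl. In them a tamoxifen-activated Cre recombinase is driven by the villin promoter, which is active in intestinal epithelial cells, and loxP sites flank part of *Mettl3*, the gene of the catalytic subunit of the RNA N6-methyladenosine writer complex. Organoids of every group carried both the Cre transgene and the floxed alleles. They received ethanol (EtOH) or 500 nM 4-hydroxytamoxifen (4-OHT) for 2 days, and DMSO or necrostatin-1 (Nec-1), an inhibitor of the kinase RIPK1, for 5 days. The dose of Nec-1 is given as 5 µM in the study's legend and as 10 µM in its methods. Of the 7 libraries, EtOH DMSO had 2, 4-OHT DMSO had 2, EtOH Nec-1 had 2 and 4-OHT Nec-1 had 1. No library of Cre-negative organoids given 4-OHT was among them, so the action of 4-OHT or of Cre itself cannot be told apart from loss of *Mettl3*. The labels do not say whether the replicates came from separate mice or cultures, so p-values measure the spread between these libraries, which may be technical. The mice used were males of 2 to 4 months.

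Paneth cells store antimicrobial proteins in granules and release them into the crypt lumen. They also sit between the Lgr5-positive stem cells and feed them with niche signals such as Wnt3, Egf and Notch ligands. They arise from secretory progenitors that depend on the transcription factor Atoh1, as goblet and enteroendocrine cells do. In organoids they form together with stem cells in the budding crypt domains.

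Levels are given as FPKM, the fragments mapped to a gene scaled for the length of its transcript and for the size of the library. FPKM summed to 450207 to 498712 per library, and 11559 to 12038 genes reached 1 FPKM in each library. The fragment counts behind the values are not known, but the spacing of the lowest FPKM gave relative depths of 0.856 to 1.04 times that of EtOH DMSO 1. Because these are bulk samples, more cells of a type and more RNA per cell cannot be told apart. *Mettl3* itself was listed at 2.70 and 2.71 FPKM for EtOH DMSO, 2.41 and 2.47 for EtOH Nec-1 organoids, 3.72 and 4.14 for 4-OHT DMSO (limma adjusted p = 0.0231 against EtOH DMSO) and 3.36 for 4-OHT Nec-1. It was thus not lower in the libraries labelled 4-OHT, and a gene-level FPKM also takes in exons that may lie outside the floxed part, so the labels could not be checked with it. Groups are called by their labels throughout.

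All 10 markers were detected in all 7 libraries, and together they took 0.395% and 0.368% of all FPKM in EtOH DMSO. Their share was 0.418% and 0.399% for EtOH Nec-1 but 0.904% and 0.915% for 4-OHT DMSO, with 0.801% for 4-OHT Nec-1. The 3 libraries labelled 4-OHT lay above the 4 labelled EtOH. Taken singly, 8 of the 10 markers had all 3 of the first above all 4 of the second, all but *Pnliprp2* and *Nupr1*, where 30.2% of all genes tested did. *Lyz1* alone, which encodes the lysozyme of Paneth granules, made up 43.9% to 47.3% of the summed FPKM of the markers in the EtOH libraries and 35.8% to 38.0% in the 4-OHT libraries. The granule genes *Lyz1*, *Ang4* and *Itln1* were each at 238 FPKM or more in every library, whereas *Mptx2* and *Habp2* were at 1.18 to 2.26 FPKM in the EtOH libraries and *Nupr1* and *Pnliprp2* at 10.7 to 27.1. Levels in bulk samples do not show which cells the transcripts came from.

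The promoters of the 4 markers that the results turn on are shown, as the 250 bases before the RefSeq start site in GRCm38.p6, 5′ to 3′ on the strand of the gene. They are *Lyz1*, the most abundant, and *Mptx2*, *Mmp7* and *Ang4*, whose fold changes after 4-OHT were the largest among the 10. Capitals mark matches to 6 short motifs searched on both strands, which did not overlap one another in these sequences. The *Lyz1* promoter (chr10:117292869-117293118, minus strand) and the *Mptx2* promoter (chr1:173277757-173278006, minus strand) held no match. The *Mmp7* promoter (chr9:7691840-7692089, plus strand) and the *Ang4* promoter (chr14:51773591-51773840, minus strand) did.
Lyz1: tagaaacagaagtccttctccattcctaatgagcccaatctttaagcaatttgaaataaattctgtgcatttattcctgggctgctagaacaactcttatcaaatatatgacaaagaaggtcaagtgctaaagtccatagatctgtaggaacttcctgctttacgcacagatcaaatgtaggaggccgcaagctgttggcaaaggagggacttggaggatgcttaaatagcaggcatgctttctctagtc
Mptx2: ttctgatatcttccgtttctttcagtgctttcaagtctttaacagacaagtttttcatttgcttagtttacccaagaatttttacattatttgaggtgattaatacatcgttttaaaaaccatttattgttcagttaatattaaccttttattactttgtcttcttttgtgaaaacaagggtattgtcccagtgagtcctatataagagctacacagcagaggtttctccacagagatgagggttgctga
Mmp7: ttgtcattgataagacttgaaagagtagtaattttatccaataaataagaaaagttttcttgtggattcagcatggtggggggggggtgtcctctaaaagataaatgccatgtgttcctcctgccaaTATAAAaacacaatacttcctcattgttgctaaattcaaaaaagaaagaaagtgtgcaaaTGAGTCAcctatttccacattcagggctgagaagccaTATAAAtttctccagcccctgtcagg
Ang4: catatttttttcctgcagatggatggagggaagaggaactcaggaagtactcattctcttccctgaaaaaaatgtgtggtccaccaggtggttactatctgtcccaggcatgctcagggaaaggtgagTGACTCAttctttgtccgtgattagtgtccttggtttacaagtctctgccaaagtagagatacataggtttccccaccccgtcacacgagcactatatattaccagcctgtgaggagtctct

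One of the motifs was TATAAA, the box that positions transcription initiation. Wnt signalling acts through Tcf factors, whose sites were searched as CTTTGAT and, in a second spelling of the same site, as CTTTGAA. Basic helix-loop-helix factors such as Atoh1 bind E-boxes, of which CAGCTG was searched. The site of AP-1 factors was searched as TGANTCA, and the cAMP response element as TGACGTCA. Of the 10 markers 9 had a promoter in the RefSeq table, all but *Clps*. The *Mmp7* promoter held TATAAA at 26 to 21 and again at 123 to 118 bases before the start, a motif found in 12.4% of all 32851 promoters of this length. It also held TGANTCA at 63 to 57 bases before the start, and the *Ang4* promoter held it at 122 to 116. TGANTCA was found in 6.75% of all promoters. *Nupr1* was the only other marker with a match, to CAGCTG (13.0% of all promoters). The Tcf motifs (3.21% of all promoters for the one ending in T and 4.46% for the one ending in A) and the cAMP response element (1.55%) had no match in the windows of the 9 markers. A match is a description of the letters, not evidence of a binding site.

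**Figure D1:**
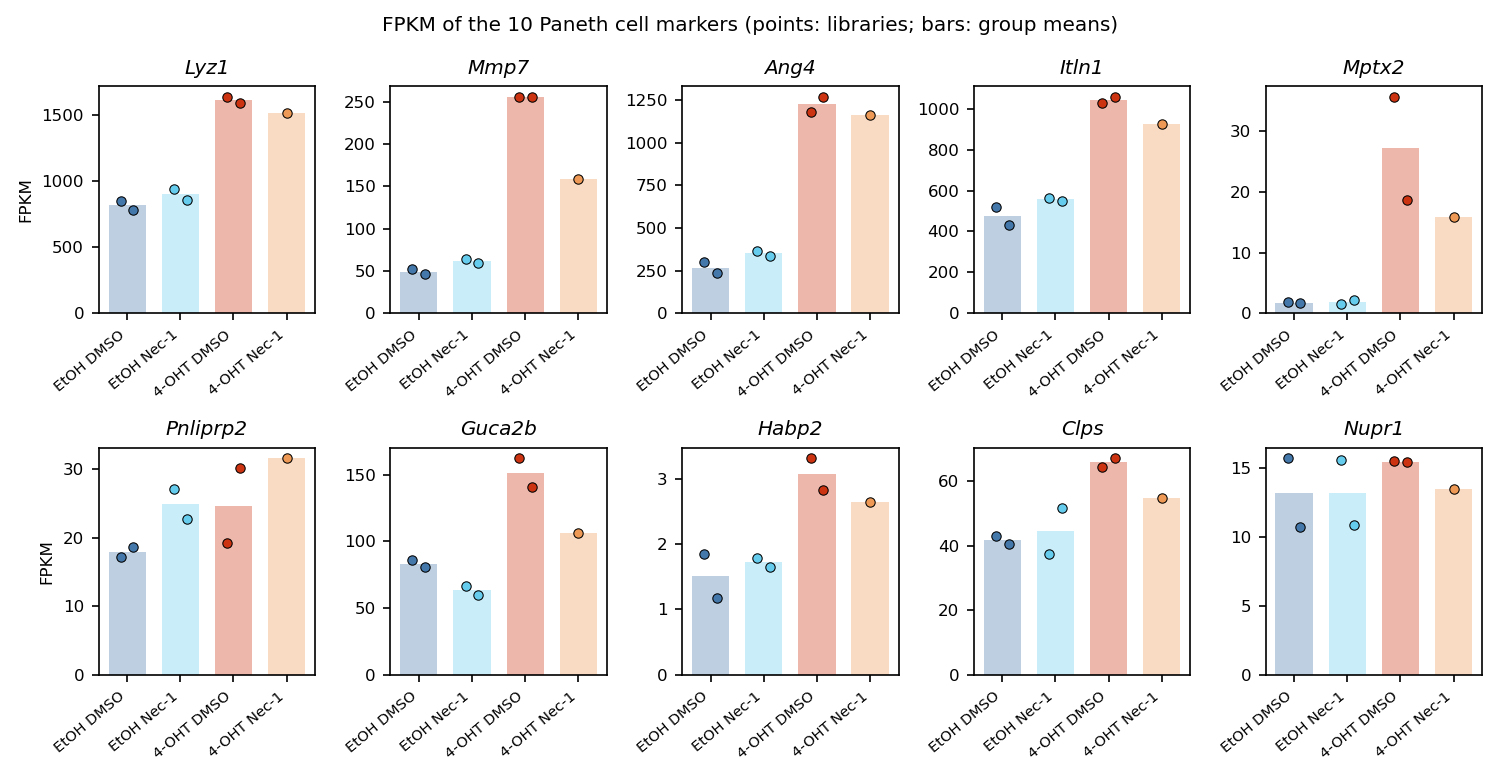
FPKM (y axis, from 0, scaled for each gene) of the 10 markers in the 4 groups (x axis), with points for libraries and bars for group means. For 8 genes, all but Pnliprp2 and Nupr1, all 3 libraries labelled 4-OHT lie above all 4 labelled EtOH, which holds for 30.2% of all genes tested, and for Clps the margin over EtOH Nec-1 2 is small.

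The comparison of 4-OHT DMSO with EtOH DMSO asks how the markers differ between organoids labelled as given 4-OHT and those given its ethanol vehicle. Of the 10 markers, 8 rose and 0 fell, with 1.58-fold to 15.5-fold higher mean FPKM, while *Pnliprp2* and *Nupr1* did not pass the test. Over all 12702 genes tested, 24.5% were called higher and 16.7% lower. The median log2 fold change of the markers was 0.92, against 0.077 over all genes tested. Folds are ratios of mean FPKM, and log2 fold changes with their standard errors (SE) and adjusted p are from limma on log2(FPKM + 1), which understates the change of genes at low FPKM.

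The antimicrobial and lectin genes of the granules rose, each to a different extent. *Lyz1* (ENSMUSG00000069515, chr10:117287795-117292868), whose product digests bacterial cell walls, was at 852 and 783 FPKM in EtOH DMSO and at 1639 and 1595 in 4-OHT DMSO. The groups did not overlap and the mean was 1.98-fold higher (log2 fold change 0.98, SE 0.10, limma adjusted p = 0.00177). *Ang4* (ENSMUSG00000060615, chr14:51763892-51773590), a ribonuclease of the angiogenin family with microbicidal activity, went from 297 and 238 FPKM to 1180 and 1269. This was a 4.58-fold higher mean (log2 fold change 2.20, SE 0.13, limma adjusted p = 0.000493), again with no overlap. *Itln1* (ENSMUSG00000038209, chr1:171518123-171535325), intelectin-1, is a lectin that binds microbial glycans. It was at 518 and 434 FPKM in EtOH DMSO and at 1030 and 1059 in 4-OHT DMSO, 2.19-fold higher (log2 fold change 1.14, SE 0.11, limma adjusted p = 0.00158). *Mptx2* (ENSMUSG00000079180, chr1:173274461-173277756), a mucosal pentraxin, was near the lower end of the markers in EtOH DMSO at 1.82 and 1.68 FPKM and reached 35.7 and 18.7 in 4-OHT DMSO. It had the largest fold of the 10, 15.5 (log2 fold change 3.29, SE 0.30, limma adjusted p = 0.00137). Its 4-OHT DMSO libraries also lay furthest apart, and with either left out its log2 fold change was between 2.84 and 3.74.

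Both protease genes rose as well. *Mmp7* (ENSMUSG00000018623, chr9:7692090-7699585) encodes matrilysin, the metalloproteinase that cleaves pro-alpha-defensins to their active form in mouse Paneth cells. It was at 51.7 and 46.4 FPKM in EtOH DMSO and at 255.9 and 255.6 in 4-OHT DMSO, 5.21-fold higher (log2 fold change 2.36, SE 0.089, limma adjusted p = 0.000256). The 4-OHT DMSO libraries were nearly equal, and *Mmp7* had the lowest adjusted p of the markers. *Habp2* (ENSMUSG00000025075, chr19:56287109-56320820), a secreted serine protease that binds hyaluronan, was low throughout, at 1.85 and 1.18 FPKM in EtOH DMSO and 3.32 and 2.83 in 4-OHT DMSO. Its log2 fold change was 0.71 (SE 0.16, limma adjusted p = 0.0205), and it was lost as a call when EtOH DMSO 2 (0.51, adjusted p = 0.0584) or 4-OHT DMSO 1 (0.62, adjusted p = 0.0665) was left out.

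The lipid digestion genes changed least among those that rose, or did not pass. *Clps* (ENSMUSG00000024225, chr17:28558210-28560766) encodes colipase, the cofactor of pancreatic lipase. It was at 42.9 and 40.4 FPKM in EtOH DMSO and 64.4 and 67.0 in 4-OHT DMSO, 1.58-fold higher (log2 fold change 0.65, SE 0.16, limma adjusted p = 0.0237). The groups did not overlap, but the call was lost when any 1 of these 4 libraries was left out, with a limma adjusted p of 0.0818 without EtOH DMSO 1, 0.103 without EtOH DMSO 2, 0.0501 without 4-OHT DMSO 1 and 0.0632 without 4-OHT DMSO 2. *Pnliprp2* (ENSMUSG00000025091, chr19:58759723-58777534), a lipase related to pancreatic lipase, had 17.2 and 18.6 FPKM in EtOH DMSO and 19.1 and 30.1 in 4-OHT DMSO. The libraries did not overlap, but the spread within 4-OHT DMSO was large and the difference did not pass the test (log2 fold change 0.41, SE 0.22, limma adjusted p = 0.190). Its value rested on which 4-OHT DMSO library was used, with a log2 fold change of 0.72 (limma adjusted p = 0.0152) without 4-OHT DMSO 1 and of 0.0905 (adjusted p = 0.635) without 4-OHT DMSO 2, and it was called in 1 of the 16 alternatives. Because both genes are best known from the exocrine pancreas, acinar genes were examined. Of 9 acinar genes, 8 were below 1 FPKM in every library, 5 of them at 0 everywhere, including *Pnlip*, *Cpa1* and *Ptf1a*. The exception was *Ctrb1*, at 2.34 and 1.79 FPKM in EtOH Nec-1 and at 0 to 0.411 in the other libraries. The 9 summed to between 0.412 and 3.02 FPKM per library.

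The peptide hormone gene *Guca2b* (ENSMUSG00000032978, chr4:119656601-119658945) rose. It encodes uroguanylin, a ligand of guanylate cyclase C that is also made by enterocytes. It was at 85.7 and 81.1 FPKM in EtOH DMSO and at 162 and 141 in 4-OHT DMSO, 1.82-fold higher (log2 fold change 0.85, SE 0.10, limma adjusted p = 0.00293). *Nupr1* (ENSMUSG00000030717, chr7:126623246-126625470), a small nuclear protein induced by cell stress, was at 15.7 and 10.7 FPKM in EtOH DMSO and 15.5 and 15.5 in 4-OHT DMSO. The groups overlapped and the log2 fold change of 0.24 (SE 0.23, limma adjusted p = 0.437) did not pass.

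The calls depended in part on how libraries were scaled. After each library was centred on its median gene, the median over all genes tested went from 0.077 to -0.080, and the genes called split as 2213 higher and 3187 lower in place of 3117 and 2120. Relative to that shift 6 markers stayed called, *Lyz1*, *Mmp7*, *Ang4*, *Itln1*, *Mptx2* and *Guca2b*, which were also the 6 called under every one of the 16 alternatives tried. *Habp2* (log2 fold change 0.55, limma adjusted p = 0.0562) and *Clps* (0.49, adjusted p = 0.056) were not called after centring. With upper quartile scaling 8 markers stayed called, among them *Habp2* (0.59, limma adjusted p = 0.0411) and *Clps* (0.48, adjusted p = 0.0467). Over all genes tested 2232 were then higher and 2976 lower.

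**Figure D2:**
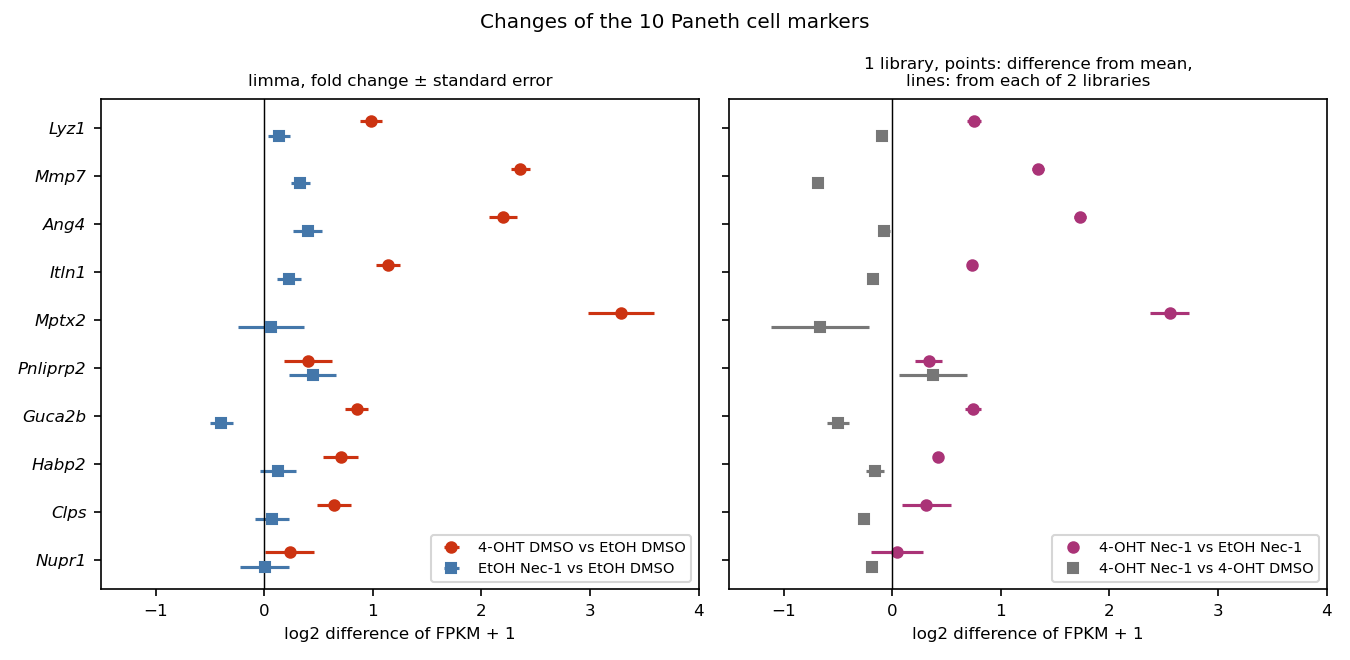
Differences of log2(FPKM + 1) (x axis) of the 10 markers (y axis). The left panel gives limma fold changes with standard errors and the right panel the single 4-OHT Nec-1 library against the mean of the reference libraries (points) and against each of them (lines). Mptx2, Mmp7 and Ang4 lie furthest right with 4-OHT in both panels, at 3.29, 2.36 and 2.20 with DMSO and 2.56, 1.34 and 1.73 with Nec-1.

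Because the markers rose by different amounts, their order of abundance differed between the groups. In EtOH DMSO the order of mean FPKM, a level per transcript length, was *Lyz1*, *Itln1*, *Ang4*, *Guca2b*, *Mmp7*, *Clps*, *Pnliprp2*, *Nupr1*, *Mptx2* and *Habp2*. Of the neighbours in it, only *Mptx2* and *Habp2* had libraries that overlapped. In EtOH Nec-1 the order was unchanged, with *Guca2b* and *Mmp7* also overlapping. In 4-OHT DMSO *Ang4* stood above *Itln1*, *Mmp7* above *Guca2b*, and *Mptx2* above *Nupr1* and level with *Pnliprp2*, whose libraries overlapped its own. The 4-OHT Nec-1 library had the same first 6 genes in the same order as 4-OHT DMSO.

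Relative to *Lyz1* in the same library, *Itln1* stayed level and *Ang4*, *Mmp7* and *Mptx2* did not. *Itln1* was at 60.9% and 55.4% of the *Lyz1* FPKM for EtOH DMSO, 59.7% and 64.1% for EtOH Nec-1 organoids, 62.8% and 66.4% for 4-OHT DMSO and 60.9% for 4-OHT Nec-1. *Ang4* was at 34.9% and 30.3% for EtOH DMSO, 38.7% and 39.3% for EtOH Nec-1 organoids, 72.0% and 79.6% for 4-OHT DMSO and 76.7% for 4-OHT Nec-1. *Mmp7* went from 6.07% and 5.93% in EtOH DMSO to 15.6% and 16.0% in 4-OHT DMSO, and was at 10.5% in 4-OHT Nec-1. For *Ang4* and *Mmp7* every 4-OHT library lay above every EtOH library. The number of all genes that did so relative to *Lyz1* was not counted. *Mptx2*, at 0.163% to 0.263% in the EtOH libraries, reached 2.18% and 1.17% with DMSO after 4-OHT and 1.05% with Nec-1. *Guca2b* was at 10.1% and 10.4% for EtOH DMSO and 7.05% and 6.99% for EtOH Nec-1 organoids. After 4-OHT it was at 9.91% and 8.83% with DMSO and 7.02% with Nec-1. Its share was thus lower in all 3 Nec-1 libraries than in all 4 DMSO libraries. How many genes did so relative to *Lyz1* was not counted. In EtOH organoids 39.1% of all genes tested were lower in both Nec-1 libraries than in both DMSO libraries, whereas *Lyz1* was higher. The percentages of *Lyz1* are ratios of levels and were not tested.

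**Figure D3:**
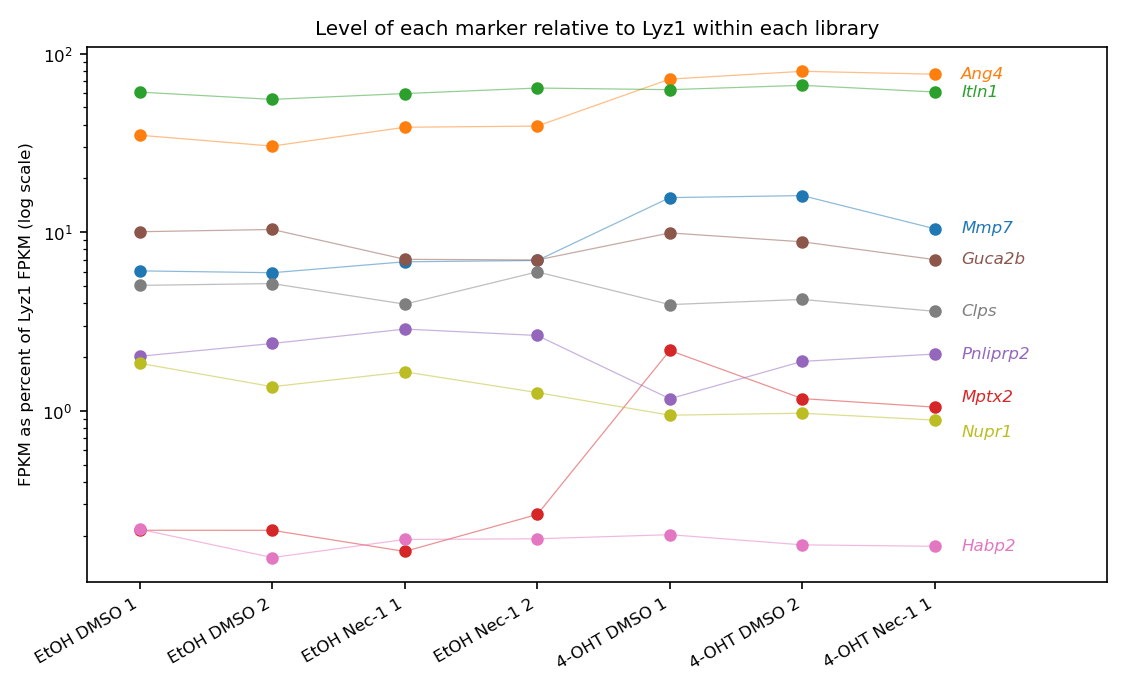
FPKM of the other 9 markers as a percent of the Lyz1 FPKM of the same library (y axis, log scale) in the 7 libraries (x axis); thin lines join the points of 1 gene and show no time course. Itln1 stays between 55.4% and 66.4%, while Ang4, Mmp7 and Mptx2 are higher in all 3 libraries labelled 4-OHT. How many of all genes are so relative to Lyz1 was not counted.

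Among the 12701 other genes tested, the pattern of *Lyz1* over the 7 libraries was most closely matched by *Mrpl57*, *Dph2*, *0610009B22Rik*, *C1galt1* and *Rpusd2*, with root mean square differences of 0.0545, 0.0622, 0.0624, 0.0646 and 0.0652 on the centred log2 scale. *Mrpl57* encodes a mitochondrial ribosomal protein and *C1galt1* the enzyme that makes the core O-glycan of mucins. *Itln1* ranked 19 (0.0769), the nearest of the markers, followed by *Habp2* at rank 517. *Guca2b* ranked 1638, *Clps* 1707, *Nupr1* 4541 and *Pnliprp2* 4703. *Ang4* (rank 8355), *Mmp7* (8694) and *Mptx2* (12406) were farther from *Lyz1* than a gene of constant level would be (0.444) and had the largest rises of the markers. The 7 libraries include 3 with 4-OHT and 4 without, so any gene with a difference of that size between the 2 sets lies near *Lyz1* in this measure.

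Other granule genes and close relatives of the markers were read beside them. *Pla2g2a*, a secreted phospholipase of Paneth granules, rose from 269 and 225 FPKM in EtOH DMSO to 853 and 911 in 4-OHT DMSO (log2 fold change 1.84, SE 0.11, limma adjusted p = 0.000506), and the chemokine gene *Ccl6* from 2.70 and 2.40 to 9.02 and 10.9 (log2 fold change 1.62, SE 0.20, limma adjusted p = 0.00304). These were 2 of the 5 genes of that list that could be tested, and 0 of the 5 fell. Over all genes tested 24.5% were called higher and 16.7% lower. The paralogs were low. *Lyz2*, the lysozyme gene of myeloid cells, was listed at 0.237 to 2.63 FPKM, *Mptx1* at 0.911 to 1.85 and *Ang* at 7.71 to 10.3. *Ang6* was listed at 0 in every library and *Ang5* in all but 1, where it had 0.0222 FPKM. How fragments shared between such relatives were divided is not stated, so the values of *Lyz1*, *Ang4* and *Mptx2* carry that uncertainty. Of 5 macrophage markers, 4 were below 1 FPKM in every library, *Csf1r* among them. The exception was *Itgam*, at 0.315 to 2.45 FPKM, and the 5 summed to 0.619 to 2.66 FPKM.

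The regulators of Paneth cell fate did not move as 1 block. Of 11 genes 10 were tested, of which 4 rose and 2 fell, where 24.5% and 16.7% of all genes tested did. Their median log2 fold change was 0.36. *Atoh1*, the master regulator of secretory fate, was at 6.64 and 8.81 FPKM in EtOH DMSO and 15.9 and 15.6 in 4-OHT DMSO (log2 fold change 0.95, limma adjusted p = 0.00451). *Ephb2*, a receptor that guides cell position along the crypt, also rose (0.71, limma adjusted p = 0.0340). *Xbp1*, a transcription factor of the unfolded protein response needed by Paneth cells, was lower at 47.6 and 53.4 FPKM against 76.3 and 79.0 (log2 fold change -0.61, limma adjusted p = 0.00464). The surface marker gene *Cd24a* fell too (-0.54, limma adjusted p = 0.00607). After median centring or upper quartile scaling *Atoh1* alone of the 4 was still called higher (limma adjusted p = 0.00549 and 0.00764). *Ephb2* was not (limma adjusted p = 0.0512 and 0.0597), and *Xbp1* and *Cd24a* were still called lower. So 1 of the 10 fate genes was then higher and 2 lower. Of all 12702 genes tested, 2213 were higher and 3187 lower with median centring, and 2232 and 2976 with upper quartile scaling.

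Of the niche ligands, 3 of 4 were tested, of which 1 rose and 1 fell, where 24.5% and 16.7% of all genes tested did. *Wnt3* rose from 0.847 and 0.942 FPKM to 1.44 and 2.07 (log2 fold change 0.53, limma adjusted p = 0.0421), a call lost with either rescaling (0 of 3 higher). The Notch ligand gene *Dll4* fell by 0.48 on the log2 scale (limma adjusted p = 0.0270). *Egf* was below 0.1 FPKM in every library. Of 3 tested genes of autophagy and granule upkeep, 1 fell, *Atg5* (-0.47, limma adjusted p = 0.0120), and 0 rose, beside the same shares of all genes.

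Beside the uroguanylin gene, its relative *Guca2a* (guanylin) rose from 224 and 215 FPKM to 327 and 334 (log2 fold change 0.59, limma adjusted p = 0.00359). The receptor gene *Gucy2c* was at 49.4 and 54.5 FPKM in EtOH DMSO and 45.3 and 42.9 in 4-OHT DMSO (-0.23, limma adjusted p = 0.0775). Downstream of it, *Prkg2*, a cGMP-dependent kinase, fell by 0.92 on the log2 scale (limma adjusted p = 0.00135) and *Cftr*, the chloride channel, by 0.56 (limma adjusted p = 0.00621). The fifth gene read beside *Guca2b*, *Slc9a3*, did not pass (-0.52, limma adjusted p = 0.126). So 1 of these 5 genes, which do not include *Guca2b*, rose and 2 fell, where 24.5% and 16.7% of all genes tested did. With either rescaling *Gucy2c* was also called lower, which made 3 of the 5. Its limma adjusted p was 0.0135 with median centring and 0.0176 with upper quartile scaling. Beside *Nupr1*, 6 genes of the Atf4 stress response were tested, of which 2 fell (*Asns*, -0.51, limma adjusted p = 0.00661, and *Atf4*, -0.43, limma adjusted p = 0.0319) and 0 rose. With either rescaling 5 of these 6 were called lower. More of all 12702 genes tested were then called lower too, 3187 with median centring and 2976 with upper quartile scaling against 2120.

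Markers of the other secretory cells moved with the Paneth cell markers. All 7 goblet markers rose, with a median log2 fold change of 1.10, and their summed FPKM was 2160 and 1967 in EtOH DMSO and 3282 and 3837 in 4-OHT DMSO. All 5 enteroendocrine markers rose, with a median of 0.90, and their sum went from 158 and 169 to 311 and 372 FPKM. With either rescaling 5 of the 7 goblet and 5 of the 5 enteroendocrine markers were still called. Of 7 enterocyte markers tested 4 fell and 2 rose (median -0.45), and of 6 stem cell markers 3 fell and 0 rose (median -0.50). Over all genes tested 24.5% rose and 16.7% fell. With either rescaling 5 enterocyte markers were lower and 2 higher, and 4 stem cell markers were lower and 0 higher. Of all 12702 genes, 2213 were then higher and 3187 lower with median centring, and 2232 and 2976 with upper quartile scaling. The part of these cell types in the change of the Paneth cell markers was not tested.

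**Figure D4:**
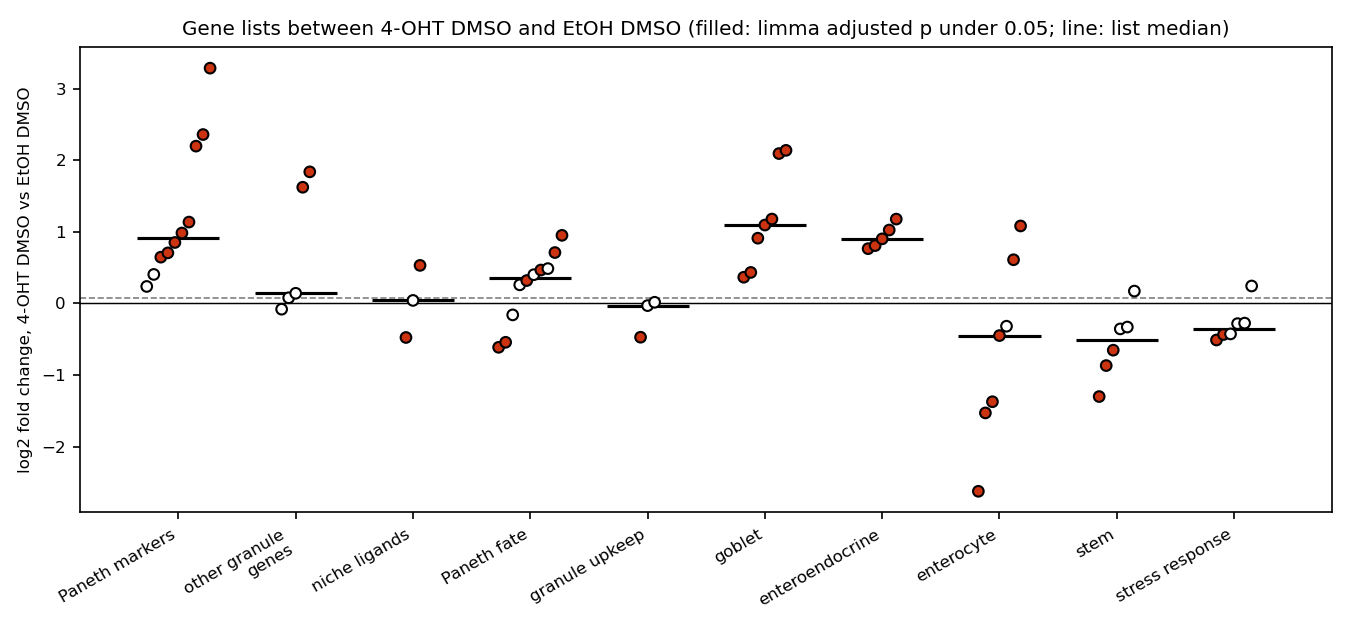
log2 fold change between 4-OHT DMSO and EtOH DMSO (y axis) of each tested gene of 10 lists (x axis). Filled points have a limma adjusted p under 0.05, short lines are list medians and the dashed line is the median of all genes tested, 0.077. The Paneth, goblet and enteroendocrine lists have medians of 0.92, 1.10 and 0.90.

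Without 4-OHT, no marker differed with Nec-1 by enough to pass the test. Between EtOH Nec-1 and EtOH DMSO 0 of 10 markers were called by limma, where 0.173% of all genes tested were called higher and 0.0472% lower. At an unadjusted p under 0.05 there were 3, *Mmp7*, *Ang4* and *Guca2b*, and 1689 genes (13.3%) over all. The median log2 fold change of the markers was 0.13, against -0.094 over all genes. Both Nec-1 libraries lay above both DMSO libraries for 5 markers, *Lyz1*, *Mmp7*, *Ang4*, *Itln1* and *Pnliprp2*, which held for 10.5% of all genes tested. *Mmp7* was at 64.4 and 59.6 FPKM with Nec-1 against 51.7 and 46.4 (log2 fold change 0.33, SE 0.089, limma adjusted p = 0.265), and *Ang4* at 365 and 337 FPKM against 297 and 238 (0.40, SE 0.13, limma adjusted p = 0.324). *Lyz1* was at 944 and 859 FPKM (0.14, SE 0.10, limma adjusted p = 0.589), *Itln1* at 564 and 551 (0.23, SE 0.11, limma adjusted p = 0.442) and *Pnliprp2* at 27.1 and 22.7 (0.45, SE 0.22, limma adjusted p = 0.445). With 1 library left out the log2 fold change ranged from 0.0724 (without EtOH Nec-1 1) to 0.21 (without EtOH Nec-1 2) for *Lyz1*, and from 0.10 to 0.36 for *Itln1* and 0.24 to 0.56 for *Ang4*, each lowest without EtOH DMSO 2 and highest without EtOH DMSO 1. *Guca2b* was the 1 marker with both Nec-1 libraries below, which held for 39.1% of all genes tested, at 66.5 and 60.0 FPKM against 85.7 and 81.1 (-0.39, SE 0.10, limma adjusted p = 0.264).

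For the other 4 markers the libraries overlapped. *Mptx2* was at 1.54 and 2.26 FPKM with Nec-1 (log2 fold change 0.064, SE 0.30), *Habp2* at 1.80 and 1.65 (0.13, SE 0.16), *Clps* at 37.3 and 51.5 (0.073, SE 0.16) and *Nupr1* at 15.6 and 10.9 (0.0054, SE 0.23). Their limma adjusted p were 0.957, 0.773, 0.878 and 0.996. This comparison shares its EtOH DMSO libraries with that of 4-OHT DMSO. No gene of the other lists was called by limma here (0 called).

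The effect of Nec-1 after 4-OHT could be read only in 1 library, with no replicate check and no test. In the 4-OHT Nec-1 library 9 of the 10 markers lay below both 4-OHT DMSO libraries and *Pnliprp2* above both, where 50.6% of the 12036 genes compared lay below and 24.5% above. Of the 10, 0 were at least 1 log2 unit away from each DMSO library, where 1.21% of genes lay that far below and 0.764% that far above. The median log2 difference of the markers was -0.18, against -0.089 over all genes. For *Lyz1*, *Mmp7*, *Ang4* and *Itln1* the order was the other way round in EtOH organoids, where both Nec-1 libraries lay above both DMSO libraries. This pattern held for 3.01% of all genes tested. After median centring 6 markers were below both libraries, and *Lyz1* (0.0239) and *Ang4* (0.0428) changed sign. How many of all genes lay below both after centring was not counted, and the 50.6% is from before it.

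The differences were largest in 3 markers. *Mmp7* was at 158.7 FPKM against 255.9 and 255.6, which was 0.621 times the mean (-0.68 on the log2(FPKM + 1) scale). *Mptx2* was at 15.9 FPKM against 35.7 and 18.7, which was 0.586 times the mean (-0.67), and the size of its difference rested on which DMSO library was used, with -1.12 from the first and -0.22 from the second. *Guca2b* was at 107 FPKM against 162 and 141 (-0.50). The most abundant markers differed little. *Lyz1* was at 1518 FPKM (-0.091), *Ang4* at 1164 (-0.072) and *Itln1* at 925 (-0.17). *Habp2* was at 2.65 FPKM (-0.16), *Clps* at 54.7 (-0.26) and *Nupr1* at 13.5 (-0.19). *Pnliprp2* was at 31.5 FPKM against 19.1 and 30.1 (0.38), with 0.69 from the first and 0.063 from the second.

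The other Paneth and secretory lists were mixed in this comparison, where 50.6% of all genes compared lay below both DMSO libraries and 24.5% above. Of the 5 other granule genes compared, 4 lay below both DMSO libraries, among them *Pla2g2a* at 633 FPKM (-0.48) and *Ccl6* at 5.50 (-0.75). The other, *Lyz2*, lay above both (2.63 FPKM against 0.677 and 0.344, 1.27) and was the only gene of that list past the fold. Of 9 fate genes 6 lay below both, such as *Atoh1* at 9.60 FPKM (-0.66), 1 above and 2 between. Of 3 niche ligand genes 0 lay below and 2 above, such as *Dll4* (0.29). Of 7 goblet markers 5 lay below both, 1 above and 1 between. Of 5 enteroendocrine markers 0 lay below, 1 above and 4 between (median 0.065).

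With Nec-1 in both arms, 4-OHT Nec-1 could be set against the EtOH Nec-1 libraries. The group means compared share no library with those compared in DMSO, although the EtOH Nec-1 pair did enter the estimate of spread in that fit. Of the 10 markers 9 lay above both EtOH Nec-1 libraries and 0 below, where 49.9% of the 11746 genes compared lay above and 38.8% below. *Mmp7*, *Ang4* and *Mptx2* were at least 1 log2 unit above each EtOH Nec-1 library, where 4.24% of genes lay that far above and 1.94% that far below. The median log2 difference of the markers was 0.74, against 0.067 over all genes. *Mptx2* had 15.9 FPKM against 1.54 and 2.26 (2.56 on the log2 scale), *Ang4* 1164 against 365 and 337 (1.73) and *Mmp7* 158.7 against 64.4 and 59.6 (1.34). *Lyz1*, at 1518 FPKM against 944 and 859, differed by 0.75, *Guca2b* by 0.75 and *Itln1* by 0.73. *Habp2* (0.42), *Pnliprp2* (0.34) and *Clps* (0.31) differed less, and *Nupr1* (0.045) lay between the EtOH Nec-1 libraries. The differences of *Clps* from the EtOH Nec-1 libraries were 0.54 and 0.086, and those of *Pnliprp2* 0.21 and 0.46. Markers of the other secretory cells lay above both EtOH Nec-1 libraries too, 7 of 7 for goblet cells (median 0.68, 2 past the fold) and 5 of 5 for enteroendocrine cells (median 0.84), and their part in the differences was not tested. Of the 5 genes read beside *Guca2b*, 2 lay above both EtOH Nec-1 libraries, 2 below and 1 between. The last was *Guca2a*, at 245 FPKM against 250 and 239. Of 9 fate genes 7 lay above both and 2 below, with *Atoh1* above by 0.24. With 1 library in the 4-OHT arm, this comparison too had no test.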

How the data were processed

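RNA-seq libraries of mouse organoids were made with the NEBNext Ultra RNA kit and sequenced by the authors, who deposited FPKM, 1 value per Ensembl gene and library. The submitters' processing notes list HISAT2 2.1.0, StringTie 1.3.3b and mm10, without their roles. Fragment counts, and so depth, are not known. One table held 3 libraries, 2 of them repeats of other tables, and 0 columns were unmapped. The 2 CUT&Tag samples were not analysed here.

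Members and gene lists were chosen with earlier results of these data known. The 12702 genes that reached 1 FPKM in 2 or more libraries were fitted with limma 3.58.1 (R 4.3.3; trend; log2(FPKM + 1); 1 mean per group over all 7 libraries; 3 residual degrees of freedom), and adjusted by Benjamini-Hochberg over all of them at 0.05, 2-sided. The script was tested on simulated data. The single 4-OHT Nec-1 library was set against each reference library, for genes whose mean over these libraries reached 1 FPKM. Of each list at most 4 genes with the largest change per comparison, markers near 0, and all 10 markers were named. The genes read beside *Guca2b*, and *Atoh1*, were also named outside this rule. Python 3.11.15, numpy 2.4.6, pandas 2.3.3 and matplotlib 3.10.9 were used. Coordinates and promoters are from RefSeq (GRCm38.p6, the build of mm10). Alternatives were other pseudocounts, filters and scalings, limma without trend, only the 4 libraries compared, a replicate block and leaving out each library.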

Additional observations from a re-analysis of the deposited data

Results flagged for a closer look

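For 4 markers the Nec-1 and DMSO libraries were ordered one way in EtOH organoids and the other way in 4-OHT organoids, with no overlap. The same pattern, higher with Nec-1 in EtOH and lower with Nec-1 in 4-OHT, held for 3.01% of all genes tested. The log2 difference between Nec-1 and DMSO was 0.14 for *Lyz1* in EtOH and -0.09 in 4-OHT, 0.33 and -0.68 for *Mmp7*, 0.40 and -0.07 for *Ang4*, and 0.23 and -0.17 for *Itln1*. The difference between these differences was not tested, and the 4-OHT values rest on 1 Nec-1 library. With 1 library left out the EtOH values ranged from 0.0724 to 0.21 for *Lyz1*, 0.24 to 0.56 for *Ang4* and 0.10 to 0.36 for *Itln1*, and the 4-OHT value of *Ang4* was -0.12 without 4-OHT DMSO 1 and -0.0189 without 4-OHT DMSO 2. After median centring the 4-OHT values of *Lyz1* (0.0239) and *Ang4* (0.0428) were above 0, and those of *Mmp7* (-0.57) and *Itln1* (-0.06) stayed below it.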

How the results depend on the processing

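The 8 calls between 4-OHT DMSO and EtOH DMSO ranged from 6 to 8 over the alternatives, and 0 markers were called lower under any of them. Where leaving out a library left 1 in its group, that library was taken to vary like the other groups. With no filter on low values 6 were called (*Habp2*, limma adjusted p = 0.069, and *Clps*, 0.0798, were not), where 2730 of 28195 genes were higher and 1745 lower. Median centring called 6 markers, beside 2213 genes higher and 3187 lower over all. Upper quartile scaling called 8, beside 2232 and 2976, and a fit of only the 4 libraries 8, beside 2402 and 1556. The main fit had 3117 genes higher and 2120 lower. The median of the markers moved to 0.76 with median centring and 0.75 with upper quartile scaling, and ranged from 0.86 to 0.98 with 1 library left out. *Nupr1* changed sign without EtOH DMSO 2 (-0.0206 to 0.50 over the libraries left out). For EtOH Nec-1 against EtOH DMSO 0 markers were called under every alternative, and the count over all genes, 28, was 79 when only the 4 libraries were fitted, 75 without either 4-OHT DMSO library, 33 with median centring, 43 with upper quartile scaling, 19 with the replicate block, 13, 14, 11 and 9 without EtOH DMSO 1 or 2 or EtOH Nec-1 1 or 2, and 8 with no filter. The marker median ranged from 0.055 to 0.29. Signs turned for *Habp2* (-0.0664) and *Nupr1* (-0.25) without EtOH DMSO 2, *Nupr1* (-0.24) without EtOH Nec-1 1, and *Mptx2* (-0.12) and *Clps* (-0.15) without EtOH Nec-1 2. With 1 library left out these ranged up to 0.32 (*Habp2*), 0.26 (*Nupr1*), 0.24 (*Mptx2*) and 0.30 (*Clps*). The cause was not tested.

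For 4-OHT Nec-1 against 4-OHT DMSO the marker median was -0.20 with a pseudocount of 0.1 or 0.25, -0.0664 with median centring, where *Lyz1* (0.0239) and *Ang4* (0.0428) turned, and -0.21 to -0.19 with 1 DMSO library left out. Without 4-OHT DMSO 2, 1 marker (*Mptx2*) was past the fold, below, in place of 0. For 4-OHT Nec-1 against EtOH Nec-1 the median was 0.60 with median centring and 0.68 to 0.78 with 1 library left out, and without EtOH Nec-1 2, 1 marker (*Nupr1*) lay below in place of 0.

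The deviations of same-numbered libraries correlated at -0.0402, 0.0065 and -0.012 across genes, so no shared effect of the replicate number was seen. This cannot show whether same-numbered libraries came from the same mouse or culture. With the replicate number as a block 8 markers were still called higher between 4-OHT DMSO and EtOH DMSO (median 0.92; 2788 genes higher and 1909 lower over all), and 0 for Nec-1 (15 and 4).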

Other observations

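*Lyz2*, the lysozyme gene best known from myeloid cells, was higher with Nec-1 in both arms, though near the lower limit of the tables. It was listed at 0.634 and 0.237 FPKM in EtOH DMSO and at 2.52 and 1.55 in EtOH Nec-1 (log2 fold change 1.08, SE 0.24, limma adjusted p = 0.210), and after 4-OHT at 0.677 and 0.344 with DMSO and 2.63 with Nec-1. The EtOH difference did not pass the correction. Both EtOH Nec-1 libraries lay above both EtOH DMSO libraries, which held for 10.5% of all genes tested. The 4-OHT Nec-1 library lay above both 4-OHT DMSO libraries, which held for 24.5% of the 12036 genes compared. How many genes were higher with Nec-1 in both arms was not counted. How fragments shared with *Lyz1* were assigned is not stated.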
